A study of Mus musculus with 4 samples.

Results

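The metallothioneins Mt1 and Mt2 and 5 zinc transporters, Slc30a1, Slc39a2, Slc39a8, Slc39a10 and Slc39a14, were followed through the airspace cells of mice exposed to mineral dust and to a mite allergen. They were chosen by name, and all 7 of 7 were found among the 13838 genes of the count matrix. Each gene's unique molecular identifiers (UMIs, tags that count a captured transcript once) were summed over the cells of each of 17 refined clusters in each of 4 libraries. The sums are given as CPM, the counts per 1000000 UMIs, of that cluster and library. The cells were lavage cells of C57BL/6 mice, and each library pooled 7 mice. Control mice breathed filtered air and received saline in the nose. APM mice breathed Afghanistan particulate matter in whole-body chambers (an aerosol of 5 mg/m3, 6 hours daily, 12 exposure days), then received saline. HDM mice breathed filtered air and received 10 µg of house dust mite extract in the nose, with sensitization on days 22 and 29 and challenge on days 36, 37 and 38. HDM+APM mice had both, the allergen course starting 9 days after the last dust exposure. All were harvested on day 39, and no cell carried a label of the mouse it came from.

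Metallothioneins are small, cysteine-rich proteins that bind zinc and copper and, on exposure, cadmium. Zinc switches on their genes through the metal-sensing factor MTF-1, which binds metal response elements near the start site, and stress hormones, inflammation and oxidants raise them as well. Slc30 proteins (ZnT) move zinc out of the cytosol and Slc39 proteins (ZIP) move it in. Slc30a1 is the zinc exporter of the cell membrane and is itself an MTF-1 target. Slc39a8 and Slc39a14 also carry manganese, iron and cadmium, and Slc39a14 is induced by interleukin-6 in liver. Slc39a10 is a zinc importer with a known role in immune cell survival, and Slc39a2 is a zinc importer described in skin and myeloid cells. Alveolar macrophages, the resident phagocytes of the airspace, are the main cells of a healthy lavage and take up inhaled particles.

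Both metallothionein genes lie on chromosome 8 on the plus strand. In the GENCODE vM21 annotation of build mm10, Mt2 spans chr8:94172664-94173568 and Mt1 spans chr8:94179082-94180327, with 5513 bases between them. Slc30a1 spans chr1:191906767-191913247 on the plus strand, and Slc39a10 spans chr1:46807544-46892852 on the minus strand. Slc39a2 spans chr14:51892889-51896745 and Slc39a8 chr3:135825279-135888572, both on the plus strand, and Slc39a14 spans chr14:70303469-70351425 on the minus strand. All 7 are annotated as protein-coding, and no run of 50 bases in the last 400 bases of their transcripts occurs in a transcript of another gene, which bears on the 3′ counts used here. RefSeq promoter windows (build GRCm38.p6, 250 bases before to 50 bases after the annotated start) were found for 6 of the 7 genes; Slc39a14 had none. They were searched on both strands for the metal response core, TGCACNC or TGCGCNC, for the antioxidant core TGACNNNGC bound by Nrf2, and for the glucocorticoid element (AGAACA and TGTTCT with any 3 bases between). The promoters of Mt1, Mt2 and Slc30a1, the members known as MTF-1 targets, are shown to place their metal cores, 5′ to 3′ up to the base before the start, metal cores in capitals.
Mt1, chr8:94178839-94179088, plus strand: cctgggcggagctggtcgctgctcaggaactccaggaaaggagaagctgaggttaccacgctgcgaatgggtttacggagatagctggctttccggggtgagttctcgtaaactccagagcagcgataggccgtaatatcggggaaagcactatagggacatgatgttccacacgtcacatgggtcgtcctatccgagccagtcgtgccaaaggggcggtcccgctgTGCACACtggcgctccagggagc
Mt2, chr8:94172368-94172617, plus strand: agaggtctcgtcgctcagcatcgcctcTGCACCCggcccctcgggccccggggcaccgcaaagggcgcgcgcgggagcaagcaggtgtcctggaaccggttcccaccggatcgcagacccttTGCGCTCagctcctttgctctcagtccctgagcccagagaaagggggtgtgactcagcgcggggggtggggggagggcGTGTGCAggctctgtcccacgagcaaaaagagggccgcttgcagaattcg
Slc30a1, chr1:191906531-191906780, plus strand: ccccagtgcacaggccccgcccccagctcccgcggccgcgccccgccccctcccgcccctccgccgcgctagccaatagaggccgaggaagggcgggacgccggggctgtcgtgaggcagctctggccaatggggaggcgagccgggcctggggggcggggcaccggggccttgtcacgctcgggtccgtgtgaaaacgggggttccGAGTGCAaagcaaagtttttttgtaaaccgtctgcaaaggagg
The whole window of Mt2 held 4 metal cores, at positions -223, -128, -50 and 5 counted from the start site as 1. The window of Mt1 held 3, at -23, 3 and 21, and that of Slc30a1 held 2, at -43 and 31. A second annotated promoter of Slc39a8 held 1, and neither Slc39a2 nor Slc39a10 held any. Of all 32851 promoter windows, 25.7% held at least 1 metal core, 1.97% at least 3 and 0.517% at least 4. The antioxidant core stood once each in the windows of Mt2 (at -79, as TGACTCAGC, which also spells an AP-1 site), Slc30a1 and Slc39a8, and in 12.4% of all windows. No glucocorticoid element stood in a member's window, but only 3 of all windows (0.00913%) held one, so its absence says little about these genes. These are matches of letters in short windows, set by 1 annotated start each for Mt1, Mt2 and Slc30a1, although Mt1 has 3 annotated transcripts. Bases farther downstream or upstream were not searched. Whether these starts are the ones used in these cells was not tested, so positions may differ and a core missing from a window may stand near another start.

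There were 3918 control, 994 HDM, 3890 APM and 1123 HDM+APM cells, and the median cell held 3417, 1380, 2637 and 4780 UMIs respectively. The clusters are those the authors deposited, and 26 of the 60 combinations of cluster and library that held cells had at least 50, the minimum for a comparison. Macrophage clusters made up 99.2% of control cells and 95.5% of APM cells, but a minority in the HDM library and 13.9% in HDM+APM. All 17 alveolar macrophage markers on a fixed list were detected in every macrophage cluster of the control and APM libraries. Macrophage 8 had Mmp12, Arg1 and Krt18 but no alveolar marker among its 10 leading genes. The cluster named classical monocyte led with C1qc, Pf4 and C1qb, macrophage genes, and the cluster named epithelial led with 4 red blood cell and 3 epithelial markers. Doublets were not called, and 42 barcodes occurred in more than 1 library. With 1 pooled library per group no test between groups is possible: every interval below is a 95% interval for counting error alone and holds no spread between mice.

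Mt1 and Mt2 were among the most abundant macrophage transcripts. Mt1 gave 325342 UMIs in all, 99.4% of them in macrophage clusters, and was seen in 85.9% of cells. Mt2 gave 89530 UMIs, 99.7% in macrophage clusters, and was seen in 70.0% of cells. In the control library Mt1 made up 13969 CPM and Mt2 4214 CPM of all UMIs. Whole-library levels were 9488 and 2161 CPM in APM, 973 and 261 CPM in HDM, and 736 and 108 CPM in HDM+APM. Macrophage clusters held 99.5% of the UMIs in control, 97.2% in APM, 37.6% in HDM and 14.4% in HDM+APM, so the clusters are given one by one.

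Among control macrophages, Mt1 stood at 18765 CPM in Macrophage 2, 16817 in Macrophage 3, 12977 in Macrophage 7, 11564 in Macrophage 1, 10334 in Macrophage 5, 8880 in Macrophage 9 and 7990 in Macrophage 8. The highest and lowest of these differed 2.35-fold. Mt2 ran from 6057 CPM in Macrophage 2 to 2829 CPM in Macrophage 8, a 2.14-fold range. Macrophage 2 was the highest cluster for both genes in both the control and the APM library, and the clusters were built from these cells, so this is a description of what the clusters are. Mt2 and Mt1 ranked 14th and 15th among all genes by their fold in Macrophage 2 over all other cells. Macrophage 4 and Macrophage 6, with 1033 and 689 APM cells but 22 and 42 control cells, had the lowest Mt1 levels of the APM macrophage clusters with at least 50 cells, 6838 and 6325 CPM. The 39 APM cells of Macrophage 10 held 3107 CPM. Macrophage 8 was the one macrophage cluster with at least 50 cells in all 4 libraries, and there Mt1 stood at 7990 CPM in control, 7128 in APM, 1156 in HDM and 2108 in HDM+APM.

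**Figure D1:**
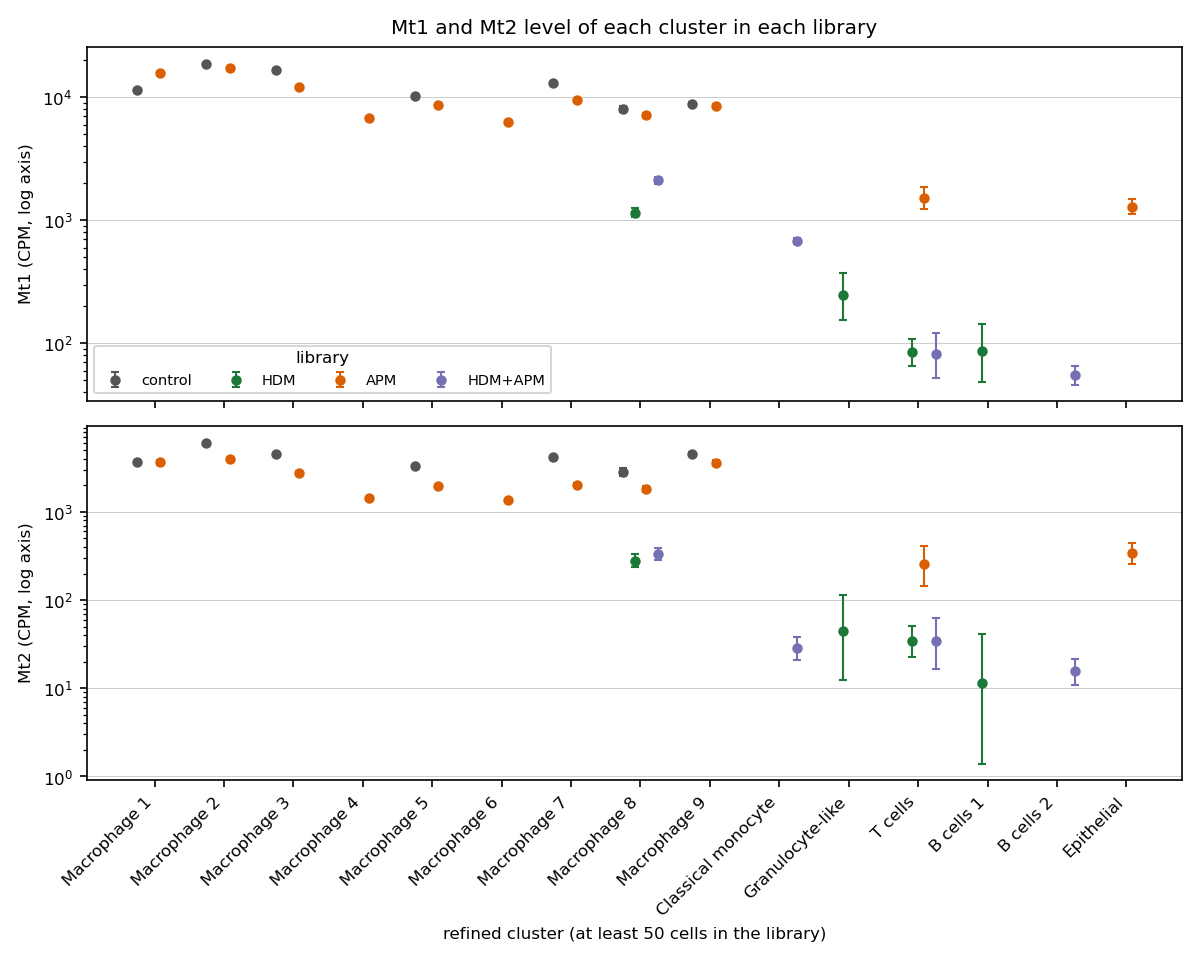
Mt1 (upper) and Mt2 (lower) in CPM on log axes, for each cluster and library with at least 50 cells; bars are exact Poisson intervals. Control and APM macrophages lie within a few-fold of each other, whereas Macrophage 8 of the HDM and HDM+APM libraries lies lower, at 1156 and 2108 CPM of Mt1.

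In the clusters not named macrophage, metallothionein levels also differed between libraries. T cells held Mt1 at 2710 CPM in control (13 cells), 1518 CPM in APM, 84.5 CPM in HDM and 82.0 CPM in HDM+APM. In control, HDM and HDM+APM that is 19.4%, 8.69% and 11.1% of the Mt1 level of the same library as a whole. Granulocyte-like cells held 5261 CPM in control (7 cells, 37.7% of the library level) and 248 CPM in HDM. Free RNA in the droplets gives such counts in cells that do not express a gene, and the part of each was not tested. B cells 2 of the HDM+APM library held 55.3 CPM, 7.51% of their library's level. The classical monocyte cluster of the same library differed: its 682 CPM (interval 643 to 724) was 92.7% of the library level, and 89.0% of its 308 cells had a Mt1 UMI at a median of 5270 UMIs per cell, against 101 of the 404 B cells 2 of that library at a median of 5447.5 UMIs. Mt2 in those monocyte-cluster cells was 28.7 CPM, with a UMI in 13.6% of cells.

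Within matched macrophage clusters Mt2 was lower in APM than in control, while Mt1 moved less. Clusters were compared where both libraries held at least 50 cells, which left 7. A gene was called when the 2 libraries held at least 20 UMIs of it, the log2 ratio (with 10 CPM added to each) passed a 1.5-fold change, and the interval of the ratio excluded 1. Mt2 was called lower in 5 of the 7 clusters and Mt1 in 0 of 7 (no p-value exists for either, and 5 of the Mt1 intervals lay below 1 and 1 above). Of all genes tested, 1.85% were called lower in Macrophage 1, 2.08% in Macrophage 2, 2.25% in Macrophage 3, 2.85% in Macrophage 5, 3.35% in Macrophage 7, 3.16% in Macrophage 8 and 5.23% in Macrophage 9. The shares called higher were 1.64%, 1.58%, 1.54%, 1.07%, 2.15%, 3.31% and 3.89% in the same order.

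Macrophage 7, which carries the proliferation markers Top2a, Birc5 and Cdk1 among its leading genes, had the widest Mt2 difference. Its Mt2 level was 2042 CPM in APM and 4145 CPM in control, a ratio of 0.493 (0.469 to 0.517). The ratio was 0.584 (0.563 to 0.606) in Macrophage 5, 0.615 (0.590 to 0.640) in Macrophage 3, 0.642 (0.566 to 0.727) in Macrophage 8 and 0.663 (0.643 to 0.683) in Macrophage 2. Macrophage 2 lies at the edge of the call: its log2 ratio of -0.59 was -0.55 with median-of-ratios scaling. In Macrophage 8 the log2 ratio of -0.64 was -0.51 in cells with at least 1000 UMIs, which ends that call. Macrophage 9 at 0.799 (0.737 to 0.865) and Macrophage 1 at 0.976 (0.908 to 1.05) were not called. Mt1 ratios were 0.725 (0.711 to 0.739) in Macrophage 3, 0.729 (0.711 to 0.748) in Macrophage 7, 0.841 in Macrophage 5, 0.892 in Macrophage 8, 0.923 in Macrophage 2 and 0.955 in Macrophage 9. In Macrophage 1 the direction was the opposite, 15640 CPM of Mt1 in 94 APM cells against 11564 CPM in 1360 control cells, a ratio of 1.35 (1.31 to 1.40).

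**Figure D2:**
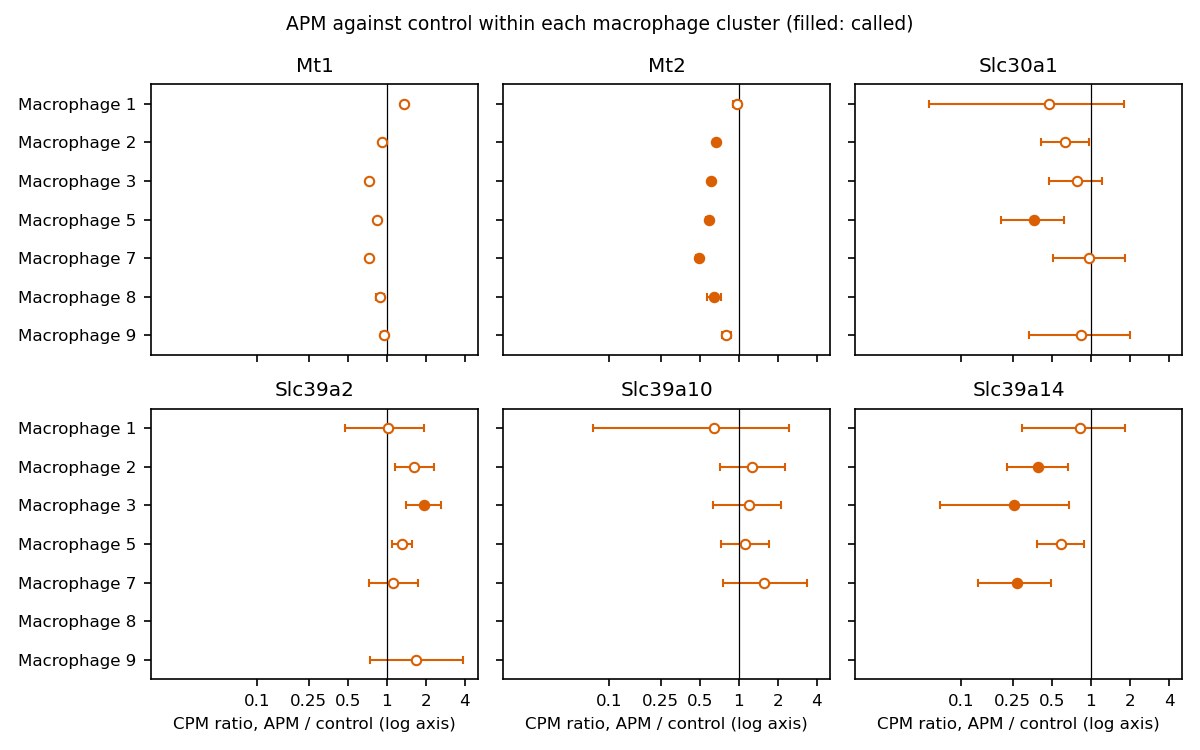
Ratio of CPM in APM to control (log axis) for 6 genes in the 7 matched macrophage clusters; bars are exact intervals for counting error, filled points were called, and clusters with fewer than 20 UMIs over both libraries are left out. Mt2 and Slc39a14 lie left of 1, Mt1 left of 1 except in Macrophage 1, and Slc39a2 right of 1.

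Summed over the macrophage clusters, Mt1 was 14022 CPM in control and 9725 CPM in APM, a ratio of 0.694 (0.688 to 0.699). Without Macrophage 4 and Macrophage 6, a set chosen after seeing the data because few control cells lie there, the ratio was 0.818 (0.811 to 0.824). For Mt2 the ratio was 0.524 (0.516 to 0.531) with all clusters and 0.632 (0.622 to 0.642) without those 2. The difference between the libraries as a whole was thus wider than within most clusters. Red blood cell genes moved with the library too: 5 such genes summed to between 188 and 375 CPM in the 7 control clusters and between 3403 and 19541 CPM in the same APM clusters. Epithelial markers summed to 297 to 440 CPM in control clusters other than Macrophage 8, where they reached 16082 CPM, and to 1592 to 4386 CPM in the APM clusters. Their part in the metallothionein ratios was not tested. Subtracting 5% or 10% of the library's mean profile as free RNA left Mt2 called in 4 of the 7 clusters. Larger shares were not subtracted, although control T cells held Mt1 at 19.4% of the library level. These settings therefore set no limit on the part of free RNA.

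Single cells, at the depth sequenced, showed a wider spread of Mt1 in APM than in control. In Macrophage 5 the median cell held Mt1 at 7395 CPM in control and 3112 CPM in APM, but the 90th percentile was 23559 CPM in control and 25566 CPM in APM. The 10th percentile there was 2603 CPM in control and 868 CPM in APM. The lower limit was thus lower in APM while the upper limit was similar in both. The 90th percentile over the 10th was 9.05-fold in control and 29.5-fold in APM, and it was larger in APM in each of the 7 matched clusters, at 11.5-fold to 44.8-fold against 3.95-fold to 12.0-fold. With cells thinned to 1000 UMIs, the 10th percentile was lower in APM in each matched cluster but Macrophage 1, where it was 2000 CPM in both. It was 0 CPM in APM in Macrophage 5 and Macrophage 8, so no fold exists there.

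Set against the control cells of the same cluster, 45.7% (interval 41.1 to 50.4) of 464 APM cells in Macrophage 5 fell below the control's 10th percentile of Mt1, and 11.4% (8.67 to 14.7) lay above its 90th percentile. By construction 10% of control cells lie beyond each limit. The share below was 37.8% in Macrophage 7, 32.3% in Macrophage 9, 30.2% in Macrophage 3, 29.9% in Macrophage 8, 22.2% in Macrophage 2 and 13.8% in Macrophage 1. With cells thinned to 1000 UMIs and shallower cells left out, the shares were 28.4% in Macrophage 5, 31.9% in Macrophage 7, 27.9% in Macrophage 3, 28.4% in Macrophage 8, 19.0% in Macrophage 2, 10.8% in Macrophage 9 and 5.32% in Macrophage 1. Cells were left out in Macrophage 8 alone of these clusters, 73 of 214 in APM and 41 of 110 in control. At equal depth the shares in Macrophage 9 and Macrophage 1 were thus near or under 10%, although thinned values come in steps of 1 UMI, so that fewer than 10% of control cells may lie below their limit. For Mt2 the median cell of Macrophage 7 held 752 CPM in APM and 3013 CPM in control, and that of Macrophage 5 held 579 CPM and 2065 CPM. Cells of 1 library share their source, so these shares describe the libraries and not the conditions.

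**Figure D3:**
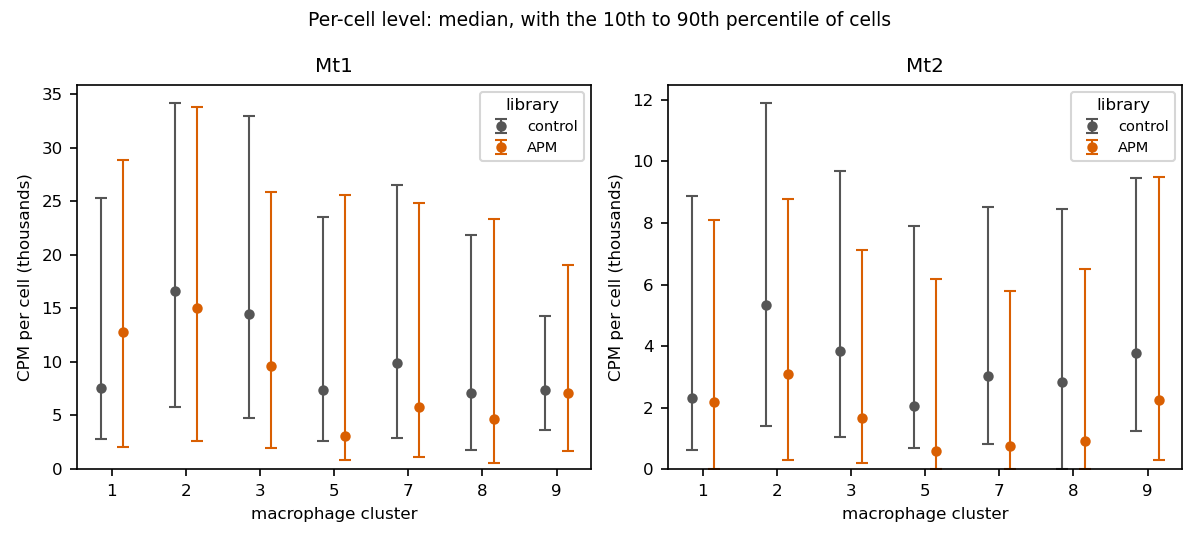
Mt1 (left) and Mt2 (right) per cell, in CPM scaled down by 1000, for the 7 matched macrophage clusters; points are median cells and bars run from the 10th to the 90th percentile of cells. In clusters 5 and 7 the APM median of Mt1 lies lower (3112 against 7395 CPM and 5775 against 9895 CPM) while the upper ends overlap.

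Mt1 and Mt2 did not keep 1 ratio. Both genes were read by the same 3′ chemistry, so their ratio may reflect capture in part. Each condition was 1 library, so a change of the ratio with dust cannot be told apart from a difference between libraries. Over all cells the ratio was 3.31 in control and 4.39 in APM, so the clusters are not separate evidence. Control clusters held 3.11 Mt1 UMIs per Mt2 UMI in Macrophage 1, 3.10 in Macrophage 2, 3.74 in Macrophage 3, 3.08 in Macrophage 5, 3.13 in Macrophage 7, 2.82 in Macrophage 8 and 1.955 in Macrophage 9. The APM values were 4.31, 4.31, 4.41, 4.44, 4.64, 3.93 and 2.34 in the same order. Each was higher than in control, and the 2 intervals did not overlap in any of the 7 clusters, the closest being Macrophage 9 with 1.84 to 2.08 and 2.17 to 2.52. Macrophage 9 had the lowest ratio in both libraries.

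In Macrophage 8 the ratio was 2.82 in control, 3.93 in APM, 4.12 (3.39 to 5.03) in HDM and 6.38 (5.41 to 7.57) in HDM+APM. The HDM and APM intervals overlapped, and the HDM+APM interval lay above the other 3. The classical monocyte cluster stood apart with 23.8 Mt1 UMIs per Mt2 UMI (17.8 to 32.6), from 1119 and 47 UMIs. B cells 2 of the same library held 3.53 (2.42 to 5.26). These 2 intervals from 1 library do not overlap.

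**Figure D4:**
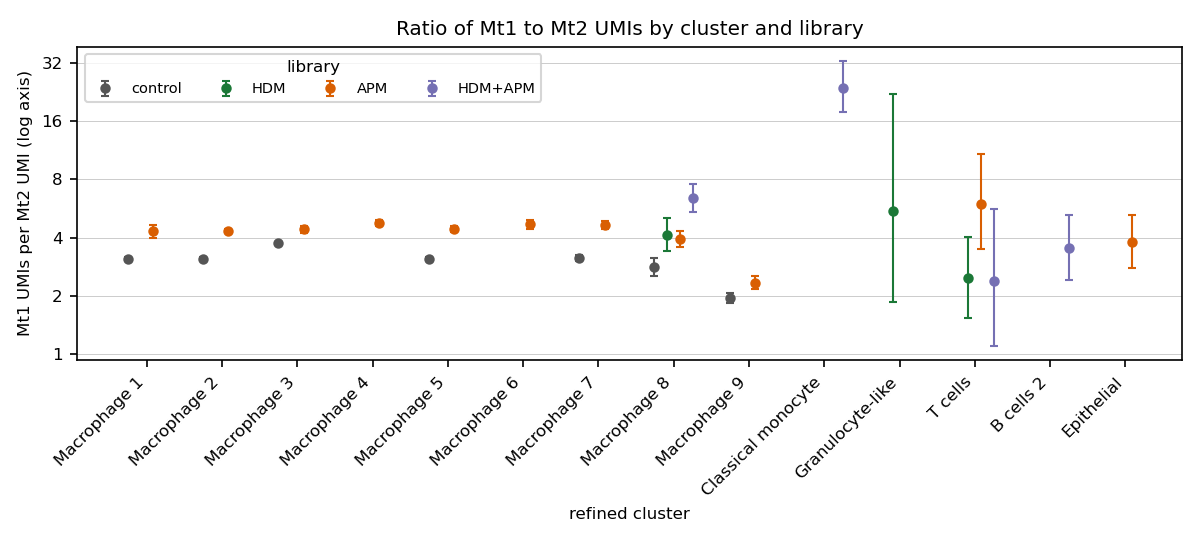
Mt1 UMIs per Mt2 UMI (log axis) by cluster and library, for combinations with at least 50 cells; bars are exact intervals. B cells 1, with 2 Mt2 UMIs in HDM, is left out; APM points lie above control points in each of the 7 matched clusters, and the classical monocyte cluster is highest at 23.8.

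The transporters were rare: 577 UMIs of Slc30a1, 1531 of Slc39a2, 523 of Slc39a10, 627 of Slc39a14 and 30 of Slc39a8 in the whole matrix. The shares found in macrophage clusters were 95.1%, 98.9%, 89.5%, 94.1% and 56.7%. At 33643423 UMIs in all, most single cells show none of them, and levels are sums over clusters.

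Slc39a2, a zinc importer, marked Macrophage 5. With the 4 libraries summed it stood at 113 CPM there (104 to 123) and was the gene with the highest fold in that cluster over all other cells. It was between 39.3 and 50.6 CPM in Macrophages 1 to 4 and 6 to 9 and at 28.0 CPM in Macrophage 10, with 4 UMIs. No other cluster exceeded 8.83 CPM. In control and APM, Macrophage 5 held 99.8 and 131 CPM, and among clusters of at least 50 cells the next highest were 43.2 CPM in control (Macrophage 1) and 63.2 CPM in APM (Macrophage 3). Macrophage 6 of control, with 42 cells and 6 UMIs, held 85.8 CPM, with an interval of 31.5 to 187.

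Slc30a1, the exporter, was highest in Macrophage 9 (39.7 CPM), Macrophage 3 (29.1) and Macrophage 2 (27.1) with the libraries summed. Macrophage 4 (7.57) and Macrophage 6 (6.68), mostly APM cells, were the lowest of Macrophages 1 to 9, and the 50 cells of Macrophage 10 held 0 UMIs, which allows up to 25.8 CPM. Within the control library Macrophage 9 was again highest (42.8 CPM) and Macrophage 8 lowest (6.36 CPM) of the clusters with at least 50 cells. The intervals of Macrophage 9 (25.7 to 58.6), Macrophage 3 (25.1 to 33.6) and Macrophage 2 (22.0 to 33.0) overlap, so the order of these 3 is not fixed. The classical monocyte cluster held 9.15 CPM, and T cells 0.880 CPM from 1 UMI.

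The highest cluster for Slc39a14 rested on overlapping intervals in control and on few UMIs in APM, so it is not fixed. Among control clusters of at least 50 cells, Macrophage 7 held 43.2 CPM (31.7 to 57.7) and Macrophage 1 held 32.1 CPM (26.4 to 38.7), with overlapping intervals, and among APM clusters Macrophage 1 was highest with 26.4 CPM from 6 UMIs. Macrophage 8 of HDM held 56.6 CPM. With the libraries summed, dendritic cells held 34.7 CPM from 10 UMIs (16.6 to 63.8), and in lymphocyte and monocyte clusters it was between 1.83 and 7.92 CPM. Slc39a10 was 16.7 CPM in T cells, within the 13.6 to 24.5 CPM of Macrophages 1 to 8, but 4.29 CPM in B cells 2 and 3.17 CPM in Macrophage 9. Macrophage 10 held 42.0 CPM of it, from 6 UMIs (15.4 to 91.3). Of the 30 UMIs of Slc39a8, 7 came from the 104 cells of the epithelial cluster (30.9 CPM, 12.4 to 63.7). No other cluster exceeded 2.64 CPM. Slc39a8 passed the minimum of 20 UMIs in no comparison and is not compared between libraries.

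**Figure D5:**
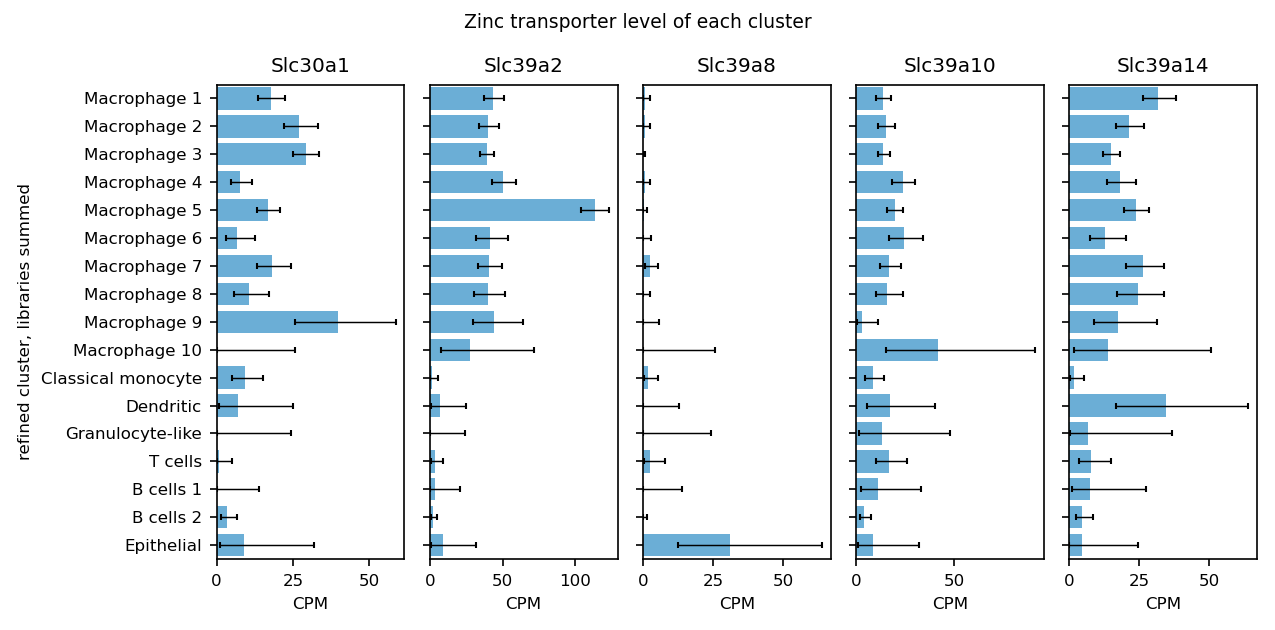
CPM of the 5 zinc transporters in each refined cluster with the 4 libraries summed; bars start at 0, whiskers are exact Poisson intervals, and each panel has its own scale. Slc39a2 reaches 113 CPM in Macrophage 5, and Slc39a8 is near 0 outside the epithelial cluster.

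Between APM and control, Slc39a14 was called lower in 3 of the 5 clusters where it reached 20 UMIs, and Slc30a1 in 1 of 6. Slc39a2 was called higher in 1 of 6, and Slc39a10 was called in 0 of 5. Of all genes, 1.07% to 3.89% were called higher and 1.85% to 5.23% lower in the matched clusters. Slc39a14 held 14 UMIs (11.6 CPM) in APM and 46 UMIs (43.2 CPM) in control in Macrophage 7, a ratio of 0.268 (0.136 to 0.496). The ratio was 0.394 (0.227 to 0.661) in Macrophage 2, with 21 and 56 UMIs, and 0.255 (0.0681 to 0.677) in Macrophage 3, with 4 and 90 UMIs. In Macrophage 5 it was 0.586 (0.384 to 0.878) and in Macrophage 1 0.822 (0.295 to 1.85), neither of them called. All 5 point estimates were below 1.

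Slc39a2 was called higher in 1 of 6 clusters, Macrophage 3, with 63.2 CPM in APM and 32.7 CPM in control (ratio 1.94, 1.42 to 2.62). Its ratio was above 1 in all 6, and the interval also excluded 1 in Macrophage 2 (1.62, 1.149 to 2.304) and Macrophage 5 (1.31, 1.11 to 1.56). Slc30a1 was called lower in 1 of 6 clusters, Macrophage 5, with 8.53 CPM in APM and 23.3 CPM in control (ratio 0.366, 0.204 to 0.625); with cells thinned to 1000 UMIs its log2 ratio of -0.85 became -0.10 and the call was lost. Slc39a10 was called in 0 of 5 clusters, with ratios between 0.641 and 1.56 and every interval including 1. In Macrophage 7 that interval reached from 0.756 to 3.35, so a change of 1.5-fold was not detectable there.

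The HDM library was compared with control in Macrophage 8, the one cluster with enough cells in both. Mt1 was 6.91-fold lower (6.24 to 7.66), with 531 UMIs in 139 HDM cells and 1257 UMIs in 110 control cells. Mt2 was 10.1-fold lower (8.26 to 12.3). The median cell held Mt1 at 404 CPM in HDM and 7137 CPM in control. Slc39a14 went the other way, with 26 UMIs in 23 HDM cells and 2 UMIs in control, 56.6 against 12.7 CPM (ratio 4.45, 1.12 to 38.7). Slc39a2 was 45.7 and 38.1 CPM (ratio 1.20, 0.468 to 3.63) and not called. Of all genes tested there, 8.57% were called lower and 10.7% higher, so members were called, 2 lower and 1 higher of 4 tested, against a high background.

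Macrophage 8 was not alike in its libraries. Its median cell held 1176 UMIs in control, 1218.5 in APM, 3056 in HDM and 4840 in HDM+APM. The 17 alveolar macrophage markers summed to 9859, 8949, 41487 and 38001 CPM in that order, with none at 0 in any of them. Epithelial markers summed to 16082, 4386, 427 and 1839 CPM, monocyte-derived macrophage markers to 2517, 3769, 6279 and 3919 CPM, and red blood cell genes to 375, 19541, 6195 and 42.3 CPM. T cell markers were between 18.7 and 124 CPM and B cell markers between 0 and 240 CPM. The higher alveolar marker sum in HDM was not particular to Macrophage 8. It rose from 16992 CPM in control to 51398 CPM in the 17 HDM cells of Macrophage 5. In Macrophage 3 it was 12241 CPM in control and 15777 CPM in 9 HDM cells. The part of these differences in the metallothionein ratios was not tested, and a change within cells and a change of which cells fall in the cluster cannot be told apart here. Leaving out the cells whose coarse type is epithelial, a step added after seeing the data, gave a log2 ratio of -2.91 for Mt1 in HDM against control, beside -2.78 with all cells.

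HDM+APM against HDM gave the dust contrast with allergen in both groups. In Macrophage 8 Mt1 stood at 2108 CPM in HDM+APM and 1156 CPM in HDM, a ratio of 1.82 (1.64 to 2.03), and was called higher. With the mean of the per-cell CPM the log2 ratio was 0.55 in place of 0.86, which is under the 1.5-fold limit, so the call is lost. Median cells held 630 and 404 CPM. Mt2 stood at 330 and 281 CPM (ratio 1.18, 0.928 to 1.49) and was not called. Slc39a14 was called lower, with 7 UMIs in 7 HDM+APM cells and 26 UMIs in 23 HDM cells (ratio 0.249, 0.0913 to 0.589). Slc39a2 was 46.3 and 45.7 CPM, a ratio of 1.01 whose interval, 0.536 to 1.92, includes changes of up to nearly 1.92-fold. In this comparison 6.45% of genes tested were called lower and 3.77% higher.

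HDM+APM against APM alone gave the allergen contrast with dust in both groups. Mt1 in Macrophage 8 was 3.38-fold lower (3.14 to 3.64) and Mt2 5.49-fold lower (4.61 to 6.58). With the mean of the per-cell CPM the log2 ratio of Mt1 was -2.45 in place of -1.75. Of all genes tested 9.69% were called lower and 8.27% higher. This comparison shares the HDM+APM library with the one above, and the HDM comparison shares the control library with the APM comparison, so they are not independent. Mt1 in Macrophage 8 was thus 1156 and 2108 CPM in the libraries with allergen and 7990 and 7128 CPM in those without.

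In T cells Mt1 was 84.5 CPM in HDM and 82.0 CPM in HDM+APM (ratio 0.970, 0.580 to 1.57), and neither metallothionein was called. There 5.27% of genes were called lower and 4.22% higher. Against APM, T cells of HDM+APM held 18.5-fold less Mt1 and 7.48-fold less Mt2, and both were called lower, where 11.5% of genes were called lower and 5.74% higher. The library as a whole moved alike, from 9488 to 736 CPM of Mt1. Whether these T cells changed was not tested, since free RNA of the library can give their Mt1 counts.

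Of a list of 22 other zinc transporters, metallothioneins and the zinc sensor Mtf1, 16 were in the matrix, and over the 7 APM comparisons 65 pairs of gene and cluster were tested, with 4 called higher and 4 lower. Of all genes, between 1.07% and 3.89% were called higher and between 1.85% and 5.23% lower in those clusters. All 4 higher calls were Slc39a1, a broadly expressed zinc importer of the cell membrane. It was higher in Macrophage 9 (118 and 59.9 CPM, ratio 1.97, 1.11 to 3.58), Macrophage 3 (1.66, 1.35 to 2.01), Macrophage 7 (1.61, 1.21 to 2.14) and Macrophage 5 (1.55, 1.33 to 1.80). In Macrophage 1 its ratio was 0.722 (0.423 to 1.16). The lower calls were Slc39a7, a zinc transporter of the endoplasmic reticulum, in Macrophage 5 (0.554) and Macrophage 8 (0.462), Slc39a13 in Macrophage 3 (0.355), and the zinc sensor Mtf1 in Macrophage 1. Mtf1 had 0 UMIs in APM and 106 in control there, at least 2.34-fold lower if 3 UMIs are allowed for the 0. In Macrophage 8 the list gave 2 higher and 0 lower calls of 6 genes tested in HDM against control. Of all genes there, 10.7% were called higher and 8.57% lower. The higher calls were Slc30a4, a vesicular zinc transporter (33 UMIs against 1), and Slc39a1 (189 and 82.6 CPM). In HDM+APM against APM it gave 2 higher and 0 lower of 7, with 8.27% of all genes higher and 9.69% lower. These were Slc30a4 (21 UMIs against 0, at least 4.53-fold higher) and Slc30a7 (27 UMIs against 4).

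The other known inducers of metallothionein were followed through lists chosen with earlier results of these data known. Nrf2 targets, the genes of the oxidant response, gave 3 higher and 14 lower calls of 98 tested pairs in the APM comparisons. Of all genes, 1.07% to 3.89% were called higher and 1.85% to 5.23% lower in those clusters. The higher calls were Gclc in Macrophage 8 (ratio 3.02) and Prdx1 and Gclc in Macrophage 9 (1.58 each). Macrophage 7 held 6 of the lower calls, of 14 genes tested, with a median log2 ratio of -0.49 against -0.02 for all genes tested. In Macrophage 2 none of 15 was called, with a median of 0.14 against -0.04 for all genes tested. Hmox1, heme oxygenase, was lower in Macrophage 7 (1017 and 1884 CPM, ratio 0.540), Macrophage 5 (0.574) and Macrophage 3 (0.603), where Mt2 was called lower too. In Macrophage 2 and Macrophage 8, where Mt2 was also called lower, Hmox1 was not called (0.856 and 1.08). Nor was it called in Macrophage 1 (0.722) and Macrophage 9 (1.03), where neither metallothionein was called. The Hmox1 values of these last 4 clusters were added after values were seen. In Macrophage 8, 12 of 13 Nrf2 targets were called lower in HDM against control (median log2 -1.33, all genes 0.07), among them Gstm1 (58.8 and 903 CPM) and Hmox1 (270 and 1278 CPM). The same count, 12 of 13, was called lower in HDM+APM against APM. Of all genes tested in Macrophage 8, 8.57% were called lower in HDM against control and 9.69% in HDM+APM against APM.

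Glucocorticoid targets gave 4 higher and 0 lower calls of 56 tested pairs in the APM comparisons, where 1.07% to 3.89% of all genes were called higher. The higher calls were Fkbp5 in Macrophage 7 (91.8 and 42.3 CPM, ratio 2.17), Sgk1 and Anxa1 in Macrophage 8 (1.73 and 1.72), and Anxa1 in Macrophage 9 (1.77). In Macrophage 8 the list gave 1 higher and 2 lower calls of 7 genes tested in HDM against control. It gave 0 and 2 of 8 in HDM+APM against HDM, and 0 and 3 of 9 in HDM+APM against APM. Of all genes, 10.7%, 3.77% and 8.27% were called higher in that order, and 8.57%, 6.45% and 9.69% lower. In T cells the list gave 1 and 0 of 7 in HDM+APM against HDM, and 0 and 3 of 4 in HDM+APM against APM. The shares of all genes there were 4.22% higher and 5.27% lower, then 5.74% higher and 11.5% lower. Copper genes gave 1 higher and 0 lower calls of 50 pairs in the APM comparisons. The higher call was the copper importer Slc31a1 in Macrophage 3 (27.9 and 13.4 CPM), where 1.54% of all genes were called higher. In Macrophage 8 the copper list gave 2 higher and 1 lower calls of 6 genes tested in HDM against control. Of all genes there, 10.7% were called higher and 8.57% lower. Slc31a2 (46 UMIs against 4) and the copper chaperone Cox17 (984 and 426 CPM) were higher. The zinc and copper enzyme Sod1 was lower (61.0 and 146 CPM).

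Among the 8 genes outside the 7 that were most like Mt1 across the 26 combinations of at least 50 cells were S100a1, Camk1, Gstm1, Prdx1, Taldo1, Lipa and Hebp1, with Pearson r of log2 levels between 0.944 and 0.955. Among the 8 most like Mt2 were Prdx1, Mroh1, Trim29, Dst, Marco, Abcc5 and Ttyh2, and Mt1 with Mt2 gave 0.973. Those most like Slc39a2 were Sh3pxd2b, Plet1, Anxa5, Ly75, Ttyh2, Atp6v0d2, Pld3 and Hebp1, with r between 0.899 and 0.918. The 26 points share 4 libraries and differ mostly as macrophages and other cells. Over the 16 control and APM macrophage combinations alone, 2 of the 24 places on these lists kept their gene: Lipa for Mt1 and Atp6v0d2 for Slc39a2. Mt1 with Mt2 was then 0.795, and Slc39a2 with Mt1 was -0.08 in place of 0.824.

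Within clusters, cells rich in Mt1 were rich in Mt2. With each cell thinned to 1000 UMIs, Pearson r of the 2 over cells lay between 0.486 and 0.815 in the control and APM macrophage clusters, and was 0.596 and 0.626 in Macrophage 8 of HDM and HDM+APM. In the classical monocyte cluster it was 0.02, where Mt2 is near 0. Without thinning, Mt2 was the gene most correlated with Mt1 in 13 of the 14 cluster and library combinations compared, Macrophage 9 of APM being the exception. Hmox1 came next in 7 of the 14, with r between 0.339 and 0.482 there. These correlations describe cells that share a library, and no test was made.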

How the data were processed

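Lavage cells of 4 groups of mice, 7 mice pooled per group, were profiled with the 10x Genomics 3′ v2 kit, per the labels. Per the submitters' processing notes, mm10 was the build and the tools included Seurat 2.3.4 and Cell Ranger 2.2.0; their roles are not stated. The authors deposited raw UMI counts per gene and cell, not normalized, with each cell's library and refined cluster; the filters used are not given in the sources used here. All deposited cells were kept. Counts were summed per cluster and library (15170333, 1920648, 11355310 and 5197132 UMIs for control, HDM, APM and HDM+APM) and given as CPM. Levels carry exact Poisson intervals, ratios exact conditional binomial intervals and shares Clopper-Pearson intervals, all at 95%, covering counting error only. Values were computed for every gene with Python 3.11.15, numpy 2.4.6 and scipy 1.17.1, and the calls were tried on simulated data. The simulation held counting error alone, with no spread between mice or libraries, and changed only the more abundant genes. The genes named are the 7 members, the 8 genes most like Mt1, Mt2 and Slc39a2 (at least 50 CPM in 1 combination), and, of each list, those among the 3 largest absolute log2 ratios in a comparison. One gene that the rule names is not reported here. The members and lists were chosen with earlier results of these data known. Alternatives changed the pseudocount, depth, scaling, free RNA, call limits and cells used.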

Additional observations from a re-analysis of the deposited data

Results flagged for a closer look

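The Mt1 ratios with dust in Macrophage 8 lay on opposite sides of 1 without and with the allergen, but only the one with the allergen was called. Its log2 ratio was -0.16 in APM against control (7128 and 7990 CPM, interval of the ratio 0.832 to 0.956), and 0.86 in HDM+APM against HDM (2108 and 1156 CPM, 1.64 to 2.03). The difference of the 2 unshrunk log2 ratios was 1.03, with a counting interval of 0.851 to 1.21, and whether it differs between conditions was not tested, since each group is 1 pooled library. In cells with at least 1000 UMIs the first of the 2 ratios was -0.02 on the log2 scale. With the mean of the per-cell CPM the second of the 2 fell under the 1.5-fold limit and lost its call. Median UMIs per cell of the cluster were 1176 in control, 1218.5 in APM, 3056 in HDM and 4840 in HDM+APM, and their part in the result was not tested.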

How the results depend on the processing

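No paired analysis was possible because each group is 1 pooled library, and for the same reason no library could be left out. The number of clusters with Mt2 called lower in APM stayed between 4 and 6 under every alternative but the 2-fold limit, which left 1; the number with Mt1 called lower was 0 under every alternative but the lower fold limit, which gave 2. For Mt1 in Macrophage 8, HDM with control (-2.78), the log2 ratio was -2.64 in cells with at least 1000 UMIs, -3.15 in cells thinned to 1000 UMIs, -3.26 as the mean of the per-cell CPM and -2.63 with 10% free RNA subtracted. For HDM+APM with APM (-1.75) it was -2.23 in thinned cells, -2.45 as the per-cell mean, -1.60 with 10% free RNA subtracted and -1.89 without cells of coarse type epithelial. For HDM+APM with HDM (0.86) it was 0.55 as the per-cell mean. The cause of these shifts was not tested. Slc39a2 in HDM+APM with HDM stayed within its counting interval under all alternatives. Of the 24 places for genes with a like pattern, 2 kept their gene in control and APM macrophages alone. The other 47 ratios gave 385 alternative values: 352 within the counting interval of the reported one, 33 outside it and 0 of a called value with the opposite sign. A pseudocount of 50 CPM, which exceeds most transporter levels, ended the calls of Slc39a14 in Macrophages 2 and 3, of Slc30a1 in Macrophage 5 and of Slc39a2 in Macrophage 3. Scaling moved the median of all genes by over 0.1 log2 in T cells of HDM+APM against APM, by -0.19. Depth limits the transporters: 30 UMIs of Slc39a8 allow no comparison.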
